A study of Nothobranchius furzeri with 16 samples.

Results

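Whole brains of adult turquoise killifish (Nothobranchius furzeri) fell into 2 classes by the transcript of growth hormone, which is made in the pituitary. Of 16 brains, 4 had GH1 above 100 TPM, a level scaled for gene length and for the library total and 12 had GH1 under 5 TPM. The fish were chosen by GH1, so its difference is a description and not a finding. The member of the high class nearest to the gap stood at 1384 TPM and the member of the low class nearest to it at 1.49 TPM. The brains had been proposed as ones with and without pituitary tissue, and the transcripts of the gland are described here by fish.

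The fish were 12 to 14 weeks post hatch, came from the same hatch, and were allocated at random with both sexes in each group. Treatment lasted 4 weeks, with 5 injections into the peritoneum (days 0, 6, 12, 18 and 24) at 10 µl per g of body weight. For 8 fish the injection held the proteasome inhibitor bortezomib at 500 µM, and for 8 the vehicle, 1% DMSO in a salt solution. All brains were sonicated and spun before RNA was taken from the aqueous phase. Neither the sex of each fish nor how the pituitary was handled at dissection is stated in the sources used here. Each treatment held 2 GH1-high and 6 GH1-low brains. The GH1-high fish were bortezomib replicates 6 and 7 and vehicle replicates 5 and 6. The number of genes at 1 TPM or more was 18534 to 18896 in the GH1-high brains and 17826 to 18891 in the GH1-low ones, and the total read count behind each library is unknown.

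The pituitary hangs from the hypothalamus on a thin stalk. In teleosts, hypothalamic axons reach directly into the gland, whose endocrine cell types each make a main hormone: somatotropes growth hormone, lactotropes prolactin, corticotropes and melanotropes pro-opiomelanocortin, thyrotropes and gonadotropes the beta subunits of thyrotropin and of the gonadotropins. Transcription factors set these fates: POU1F1 acts in the growth hormone, prolactin and thyrotropin lineage, NR5A1 marks gonadotropes, TBX19 marks the pro-opiomelanocortin lineage, and PITX1 is found across the gland.

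GH1, which set the classes, and the hormones PRL, POMCA, LHB and TSHB were all far higher in the same 4 brains than in the other 12. GH1 stood at 1678 and 1745 TPM in bortezomib replicates 6 and 7 and at 3582 and 1384 TPM in vehicle replicates 5 and 6, against 0.242 to 1.49 TPM (median 0.610) in the GH1-low fish. PRL, which encodes prolactin, was at 1525, 1054, 1517 and 541 TPM in the same order, against 0.142 to 12.8 TPM (median 0.754). The classes did not overlap for either hormone, and the means were 2097 ± 1002 TPM (SD, n = 4) for GH1 and 1159 ± 467 TPM for PRL. POMCA, a pro-opiomelanocortin gene whose product is cut into ACTH and melanocyte-stimulating hormone, was at 486, 420, 614 and 70.5 TPM, against 0.486 to 8.49 TPM in the GH1-low fish. Vehicle replicate 6 was far below the other 3 GH1-high fish for POMCA but still above every GH1-low fish.

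LHB, the beta subunit of luteinizing hormone, was at 360, 406, 270 and 99.7 TPM. It was listed at 0 in 11 of the 12 GH1-low brains, and bortezomib replicate 8 was listed at 0.152 TPM, so no fold is given. TSHB, the thyrotropin beta subunit, was at 148, 48.5, 60.7 and 25.8 TPM against 0.963 to 4.75 TPM. The classes did not overlap for LHB or TSHB, and TSHB had the smallest ratio of means, 25.8, of the 4 hormones listed above 0 in every GH1-low brain. The ratio was 121 for POMCA, 523 for PRL and 2484 for GH1. None of the 5 is given a test, because GH1 chose the fish and the other 4 were proposed with it.

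**Figure D1:**
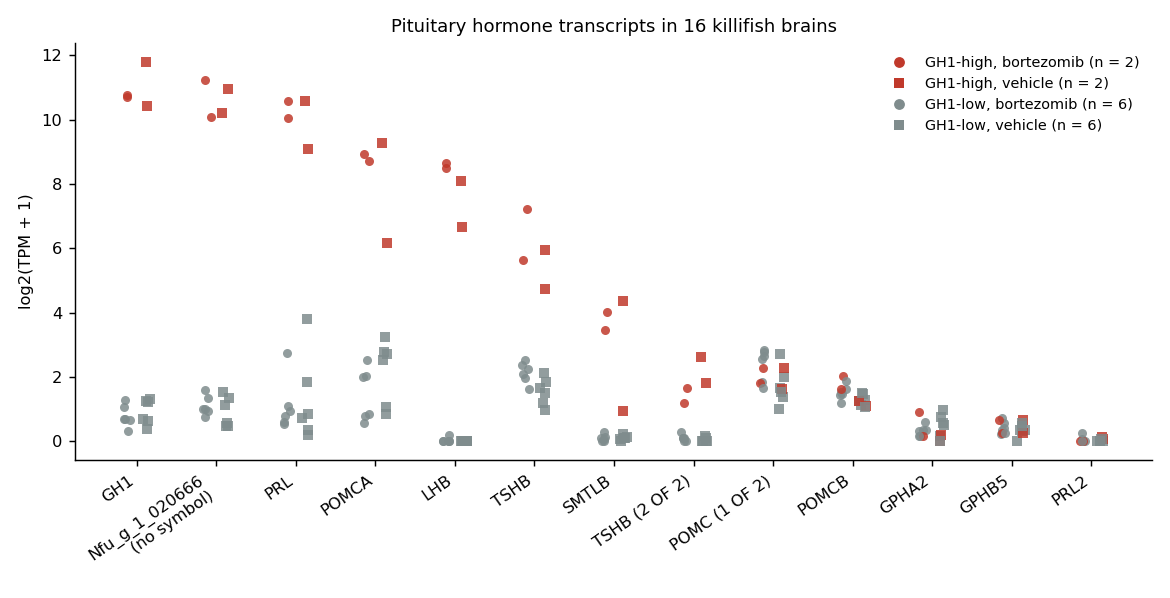
Level of each hormone transcript as log2(TPM + 1) in every fish: red, the 4 GH1-high brains; grey, the 12 GH1-low brains; circles bortezomib, squares vehicle. The red points of GH1, PRL, POMCA, LHB and TSHB sit above all grey ones, whereas the points of POMCB, POMC (1 OF 2), GPHA2, GPHB5 and PRL2 overlap.

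Not every hormone gene of the list separated the classes. A second thyrotropin beta gene, TSHB (2 OF 2), was at 2.14, 1.27, 2.48 and 5.18 TPM against 0 to 0.205 TPM, and its highest value was in vehicle replicate 6, which had the lowest TSHB. SMTLB, a somatolactin gene of the growth hormone family known from fish, was at 9.94, 15.1, 19.7 and 0.925 TPM against 0 to 0.210 TPM. It reached 1 TPM in 3 fish only and was not tested. The paralogs POMCB and POMC (1 OF 2) overlapped between the classes, at 1.92 ± 0.855 TPM (SD, n = 4) against 1.67 ± 0.433 TPM (n = 12) and at 3.07 ± 0.910 TPM against 3.50 ± 1.88 TPM. PRL2, GPHA2 and GPHB5 stayed under 1 TPM in every fish. In all, 12 of the 24 symbols of the hormone list had a row, 8 rows passed the filter on low values and 6 of them were called higher, against 0.295% of all genes. Because the list holds the gene that chose the fish, nothing is read from that count. The shared glycoprotein hormone alpha subunit (CGA), FSHB and SMTLA were not matched to a row by symbol and are not analysed here, nor are the pituitary factor LHX3 and the granule protein gene CHGA.

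A row without a symbol, Nfu_g_1_020666, was far higher in the same 4 brains as GH1 and was singled out after its values were seen. Within these 4 its order differed from that of GH1, and its level relative to GH1 ranged from 0.329 to 1.43. It stood at 1083, 2393, 1178 and 1976 TPM in the 4 GH1-high fish and at 0.372 to 2.01 TPM in the others. Its level was higher than that of PRL in the GH1-high fish bortezomib replicate 7 and vehicle replicate 6. The files do not pair it with a gene name and none is given to it here.

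The hormone rows summed to 4214 and 3697 TPM in bortezomib replicates 6 and 7 and to 6069 and 2133 TPM in vehicle replicates 5 and 6, against 11.0 to 21.2 TPM in the GH1-low brains. They were thus 0.421, 0.370, 0.607 and 0.213% of the transcript total. With the unnamed row the sums were 5297, 6090, 7247 and 4109 TPM. Adding it narrowed the spread between the 4 brains, from 2.85 times between the highest and the lowest to 1.76 times. In a bulk sample, fewer cells of a type and less RNA per cell cannot be told apart.

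The make-up of the hormone transcripts differed between the 4 fish. GH1 took 40.0 and 47.5% of the summed level of the 5 hormones in the bortezomib replicates and 59.3 and 65.2% in the vehicle replicates. PRL took 36.3, 28.7, 25.1 and 25.5%, in the order bortezomib replicates 6 and 7 and vehicle replicates 5 and 6. LHB took 8.58, 11.0, 4.46 and 4.70%. The bortezomib fish were thus lower in the share of GH1 and higher in those of PRL and LHB, with 2 fish on each side and no test. The shares add up to a fixed whole, so a lower share of GH1 raises the others. In TPM the GH1 and PRL values of the 2 treatments overlapped, and those of LHB did not. POMCA took 11.6, 11.4 and 10.2% in the first 3 fish and 3.32% in vehicle replicate 6. TSHB took 3.52% in bortezomib replicate 6 and 1.01 to 1.32% in the other 3.

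**Figure D2:**
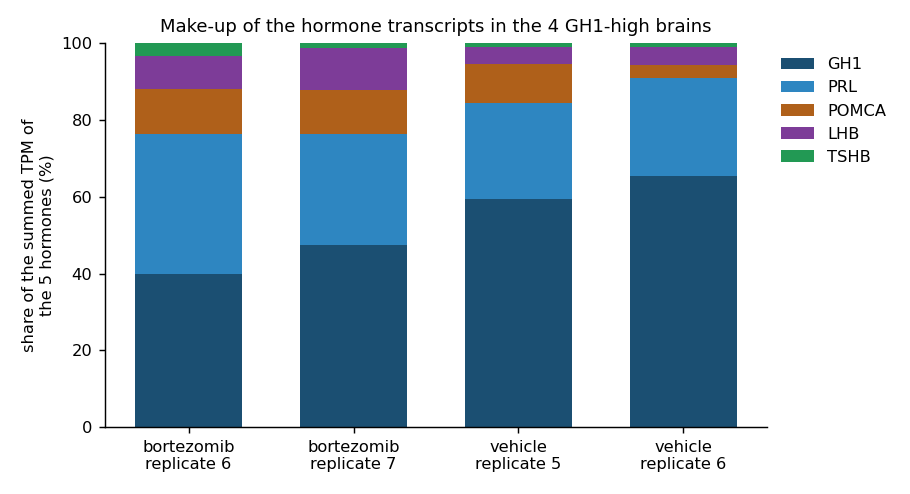
Share of each hormone transcript in the summed TPM of GH1, PRL, POMCA, LHB and TSHB (y axis, %), one bar per GH1-high brain. GH1 is the largest share in each bar, from 40.0 to 65.2%, and the POMCA share is smallest in vehicle replicate 6.

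The transcription factors of the pituitary followed in part. Of 32 rows of that list, 27 were tested, 6 were called higher, none lower and 21 neither. Over all genes 0.295% were called higher. At an unadjusted limma p under 0.05 there were 9 of the 27, against 9.25% of all genes. Nothing is read from these counts, since the list shares the gland that chose the fish. The median log2 difference of the tested rows was 0.07, against -0.0084 over all 19351 genes tested, and most of the list was not called. As transcripts of the gland that defined the classes, called members are given as values with no test. POU1F1, the lineage factor of growth hormone, prolactin and thyrotropin cells, was at 19.9, 13.4, 23.7 and 8.18 TPM against 0.130 to 0.546 TPM. NR5A1B, a paralog of the gonadotrope factor, was at 24.4, 50.8, 23.3 and 18.7 TPM against 0.0211 to 0.146 TPM. Both factors were lowest in vehicle replicate 6 and did not overlap between the classes.

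PITX1 was at 7.76, 9.15, 7.18 and 4.38 TPM against 0.208 to 0.723 TPM. ASCL1A, a proneural factor that acts in endocrine and neuronal precursors, was at 19.3, 19.9, 29.6 and 24.6 TPM, but it was also present in every GH1-low brain, at 2.50 to 9.01 TPM. PITX3 was at 1.74, 3.06, 1.81 and 1.47 TPM against 0.232 to 0.469 TPM. The other rows that the biology would single out gave low or overlapping values. TBX19 reached at most 0.185 TPM in any fish, including the 3 brains with 420 to 614 TPM of POMCA, and NR5A1A was at 0.710 ± 0.157 TPM (SD, n = 4) against 0.821 ± 0.364 TPM (n = 12).

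**Figure D3:**
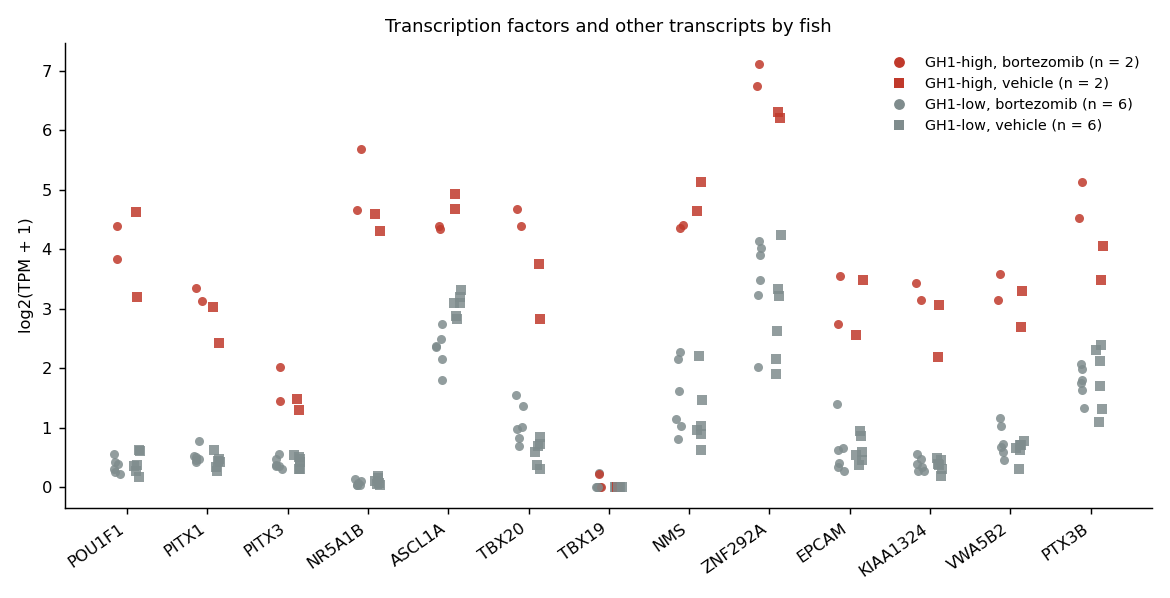
Level of transcription factors (left) and of other transcripts (right) as log2(TPM + 1) in every fish, with colours and symbols by GH1 class and treatment as in the key. POU1F1, PITX1, PITX3 and NR5A1B are near 0 in the GH1-low brains, whereas ASCL1A is present in all 16 and TBX19 is near 0 in every fish.

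The receptors through which the hypothalamus and peripheral hormones act on the gland mostly gave no call. Of 52 receptor rows tested, 2 were called higher, both carrying the symbol ESR1, an estrogen receptor, against 0.295% of all genes. At an unadjusted limma p under 0.05 there were 11 of the 52, against 9.25% of all genes. Nothing is read from these counts either. One was at 6.98, 9.35, 7.65 and 7.42 TPM against 1.27 to 4.96 TPM and the other at 4.08, 7.41, 6.18 and 4.83 TPM against 1.27 to 3.17 TPM. The rows share a symbol, so how reads were divided between them is uncertain. Both calls were lost when bortezomib replicate 7 or vehicle replicate 5 was left out, and the first also without vehicle replicate 6 or 8. Both were also lost with replicate number as a block and in each treatment alone. The first was lost as well with a pseudocount of 0.1 and when 1 TPM was asked of 12 fish. Of 45 tested rows for prohormone processing and secretory granules, machinery that neurons share with endocrine cells, none was called in limma with Benjamini-Hochberg adjustment, 9 had an unadjusted p under 0.05 against 9.25% of all genes, and the median log2 difference was 0.22. PCSK1, a convertase that cuts pro-opiomelanocortin, was at 129 ± 5.28 TPM (SD, n = 4) against 120 ± 14.7 TPM (n = 12).

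Over all genes, few transcripts were called between the GH1-high brains and the others, which with 4 fish against 12 does not show that few differ. In a limma fit on log2(TPM + 1) with treatment as covariate, 57 genes were called higher at an adjusted p of 0.05, 0.295% of 19351, and 1 was called lower, 0.00517%. At an unadjusted p under 0.05 in the same limma fit, 1447 genes were higher and 343 lower, together 9.25% of all genes. The count of genes called higher depended on the settings: it was 27 or 21 when 1 TPM was asked of 8 or 12 fish, 130 with no filter, 98 with sample weights and 33 or 23 in the bortezomib or vehicle fish alone. The stricter filters left only 31 or 26 of the 57 to be tested, and 27 or 21 of these kept the call. With no filter all 57 kept it. The count of genes called lower was 0 in most of the settings tried. The rise was at least 2-fold for 45 of the 57, and in 49 of them the classes did not overlap. All 4 GH1-high brains were above all 12 others in 81 genes, 0.419%, and below them in 6, 0.031%. As the fish were chosen by GH1, a gene made in the same gland has to differ, and the p-values rank genes rather than test the classes. The filter adds to this: 26 of the 57 had fewer than 4 GH1-low fish at 1 TPM or more, 18 of them none, so they passed only through the high class and had to differ. In 17 of the 57 all 12 GH1-low fish were at 1 TPM or more. All 57 had a positive difference within each treatment, but they were called on both treatments together, so nothing is read from that. The 57 summed to 0.449 to 0.778% of the transcript total in the GH1-high brains and to 0.0102 to 0.0150% in the others.

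**Figure D4:**
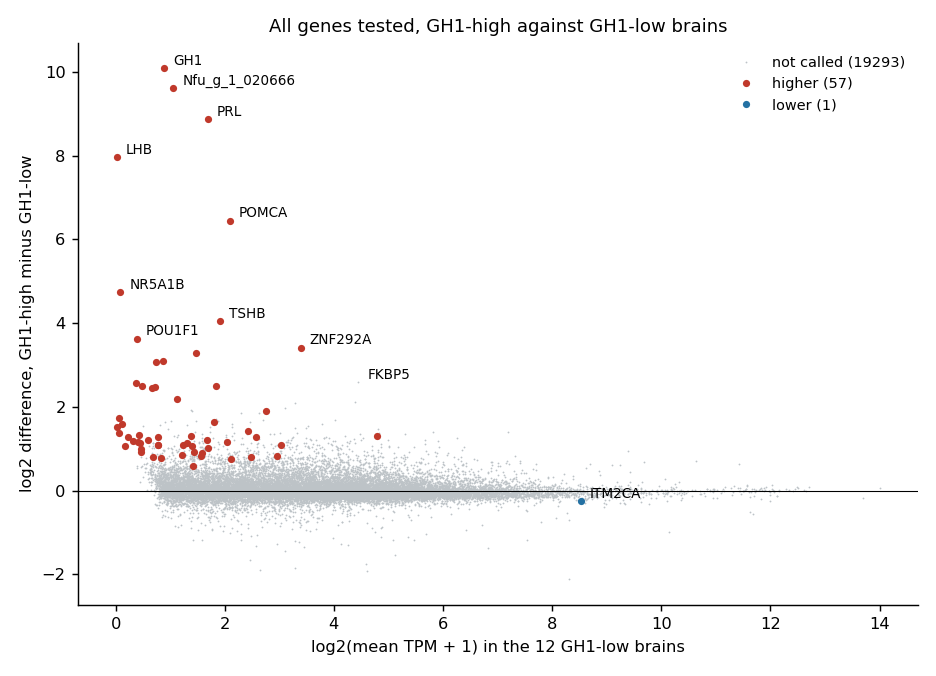
Each point is a gene: x axis, log2(mean TPM + 1) in the 12 GH1-low brains; y axis, log2 difference, GH1-high minus GH1-low, adjusted for treatment. Red and blue mark the 57 genes called higher and the 1 called lower; the called genes lie mostly at low levels in the GH1-low brains, and FKBP5 has a large difference without a call.

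Of the 57 genes called higher, 40 were in no list, and 9 of these had no symbol. Those with a symbol and a mean of at least 5 TPM in the GH1-high fish are given here. ZNF292A, a zinc finger gene, was at 106, 138, 78.3 and 72.6 TPM against 2.75 to 17.8 TPM, a log2 difference of 3.40 ± 0.38 (SE; limma adjusted p = 8.99e-05). Its call was lost with replicate number as a block (limma adjusted p = 0.147) and in the vehicle fish alone (0.0757). In the block fit only replicate numbers 5 and 7 held both classes, so the class difference rests on these fish. The block estimate was 3.09 ± 0.54 (SE). In the RefSeq annotation (assembly NfurGRZ-RIMD1) the gene of this symbol lies between orc3 and cga, the gene of the alpha subunit for which no row was matched; whether reads of a neighbour were counted in this row was not tested. NMS, the neuropeptide neuromedin S, was at 20.3, 19.6, 34.2 and 24.0 TPM against 0.546 to 3.86 TPM (3.29 ± 0.30, adjusted p = 6.33e-06). TBX20, a T-box transcription factor known for its role in heart development, was at 20.1, 24.6, 12.5 and 6.07 TPM against 0.230 to 1.92 TPM and, with fewer than 4 GH1-low fish at 1 TPM, is given no test. For all 3 genes the lowest GH1-high fish stood above the highest GH1-low fish.

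KIAA1324 was at 7.14 ± 2.60 TPM (SD, n = 4) against 0.302 ± 0.0961 TPM (n = 12), and VWA5B2 at 8.28 ± 2.28 against 0.648 ± 0.269 TPM, and both passed the filter only through the GH1-high fish. PTX3B, of the pentraxin family, rose from 2.59 ± 0.980 to 20.5 ± 10.3 TPM, and CR391998.1 from 1.18 ± 0.730 to 9.37 ± 4.54 TPM. Both rows named CRHBP (2 OF 2), for a protein that binds corticotropin-releasing hormone, rose as well, at 66.7 ± 13.9 against 26.5 ± 6.84 TPM and at 17.1 ± 5.86 against 7.19 ± 1.16 TPM. They share a symbol, so their division of reads is uncertain, and the call of the second was lost without bortezomib replicate 7 or vehicle replicate 5. CCKBR (2 OF 2), a receptor for cholecystokinin and gastrin peptides, was at 14.4 ± 6.69 against 4.98 ± 0.930 TPM. MDH1 (2 OF 2), a cytosolic malate dehydrogenase, was at 6.65 ± 2.91 against 2.21 ± 0.463 TPM, and TSPAN13A, a tetraspanin, at 5.37 ± 0.719 against 1.59 ± 0.488 TPM. KAL1B, a gene for anosmin, the protein of Kallmann syndrome, was at 8.82 ± 1.91 against 4.59 ± 0.617 TPM. TRIM66 and FAM46BA had log2 differences of 0.83 and 0.76 and lost their calls when single fish were left out, bortezomib replicates 6 or 7 among them in both cases. In the vehicle fish alone, PTX3B, CR391998.1, both CRHBP rows, CCKBR (2 OF 2), MDH1 (2 OF 2), TSPAN13A and KAL1B also lost their calls. CR391998.1, CCKBR (2 OF 2), MDH1 (2 OF 2) and KAL1B lost theirs in the bortezomib fish alone as well. TRIM66 and FAM46BA lost theirs in each treatment alone. With replicate number as a block, CR391998.1, both CRHBP rows, CCKBR (2 OF 2), TSPAN13A, KAL1B, TRIM66 and FAM46BA lost theirs.

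The lists of other cell types held 3 called genes that are in no pituitary list. EPCAM, an adhesion molecule of epithelia, was at 5.72, 10.7, 10.2 and 4.86 TPM against 0.213 to 1.65 TPM and likewise is given no test; it was the only call among 15 epithelial rows tested. GLUL (1 OF 2), a glutamine synthetase gene that is in the glial and the glucocorticoid response list, was at 3.35, 1.64, 2.33 and 1.83 TPM against 0.0192 to 0.130 TPM and passed the filter only through the GH1-high fish, so it is given no test. DUSP2, a phosphatase of MAP kinases in the immediate early list, was at 2.38, 5.27, 4.24 and 5.44 TPM and overlapped the GH1-low fish at 1.03 to 2.82 TPM. Its call (0.84 ± 0.16, adjusted p = 0.0235) was lost without bortezomib replicate 7 (adjusted p = 0.200), vehicle replicate 5 (0.0554) or vehicle replicate 6 (0.125). GLUL (1 OF 2) and DUSP2 were the only calls among 20 rows tested for glia, 45 immediate early rows and 20 rows of the glucocorticoid response. Over all genes 0.295% were called higher, and nothing is read from these counts or from the epithelial one.

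Most lists for brain cells and for the tissues next to the gland held no called gene. With 0.295% of all genes called higher, lists of this size would hold few calls or none, so the zeros are at the background; 9.25% of all genes had an unadjusted p under 0.05. The lists of neurons (37 rows tested), myelin (19), microglia (24), vessels (24), hypothalamic peptides (28) and hypothalamic transcription factors (28) had no called gene, with 5, 1, 2, 0, 2 and 1 rows at an unadjusted p under 0.05. Blood cells (10), retina and pineal (21), meninges (29), cartilage and bone (16), muscle (26) and olfactory epithelium (10) had no called gene either, with 1, 0, 3, 0, 1 and 1. The same held for the secretory pathway of the endoplasmic reticulum (59), the cell cycle (28) and cytosolic ribosomal proteins (76), with 5, 0 and 0. Among peptides of the hypothalamus, whose axons supply the gland, measured here in whole brain, AVP was at 87.1 ± 29.2 TPM (SD, n = 4) against 115 ± 56.9 TPM (n = 12), OXT at 89.6 ± 31.0 against 88.6 ± 48.6 TPM and GNRH3 at 32.8 ± 3.32 against 37.8 ± 13.7 TPM. Summed over the list, hypothalamic peptides ranged from 1965 to 2213 TPM in the GH1-high and from 1446 to 2483 TPM in the GH1-low brains. The summed levels of the neuronal list, 6539 to 6829 TPM, also lay within the range of the GH1-low brains, 4818 to 7495 TPM. ELAVL3, an RNA-binding protein of neurons, was at 171 ± 14.9 against 116 ± 50.1 TPM (limma adjusted p = 0.539). MBPA, a myelin protein gene, was at 4068 ± 1229 against 4448 ± 1261 TPM.

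**Figure D5:**
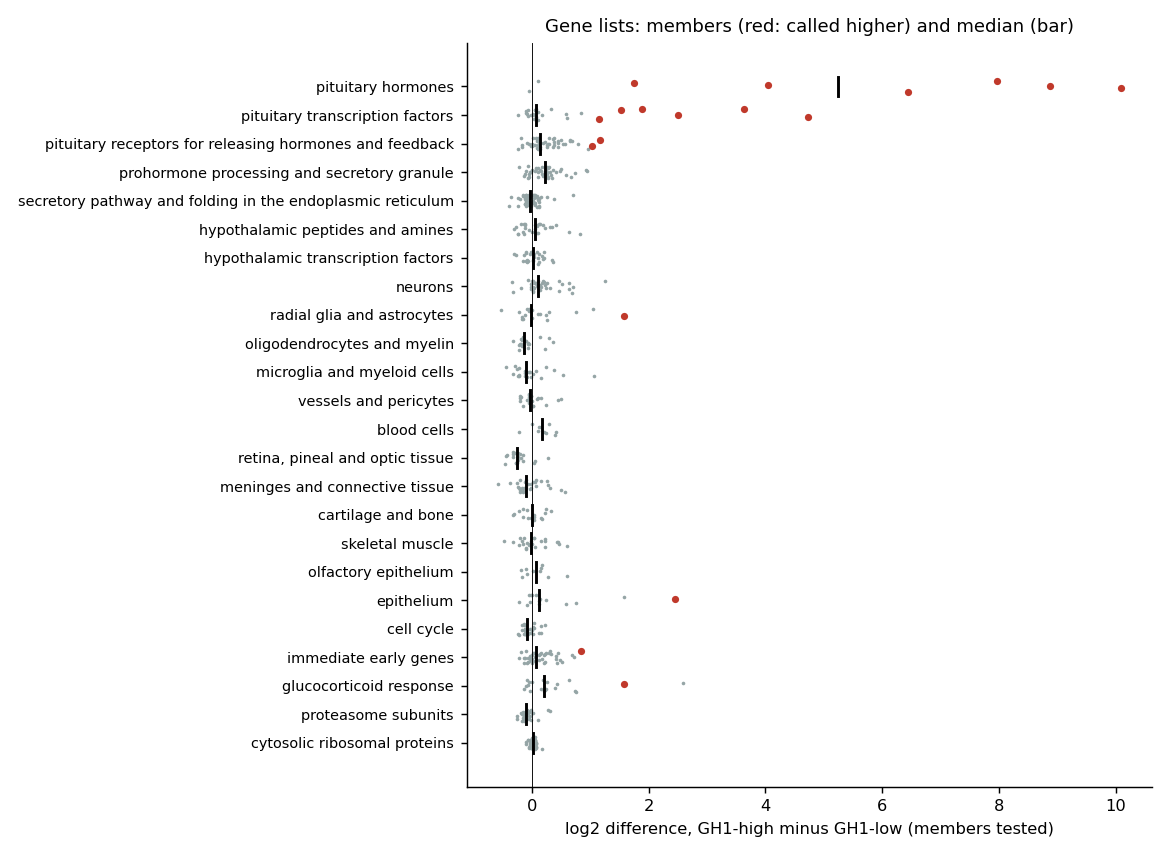
Log2 difference, GH1-high minus GH1-low, of the members tested in each of 24 gene lists (x axis; red, called higher; bar, median of the list). The hormone list has a median of 5.24, and the medians of the other lists lie between -0.25 and 0.22.

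The one gene called lower was ITM2CA, a BRICHOS family membrane protein, at 321, 321, 306 and 286 TPM against 343 to 393 TPM (log2 difference -0.25 ± 0.05, limma adjusted p = 0.0415). The classes did not overlap, but the call was lost when single fish of either class were left out and under 3 scalings of the libraries.

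FKBP5, a glucocorticoid-induced chaperone, was named after its values were seen because the 4 GH1-high brains were the top 4 of all 16. It stood at 70.1, 69.2, 78.9 and 73.4 TPM against 0.354 to 66.6 TPM, and it was not called (log2 difference 2.59 ± 0.77, limma adjusted p = 0.399). CEBPD, which is also in the glucocorticoid response list, was at 264 and 285 TPM in vehicle replicates 5 and 6 and at 38.2 and 30.5 TPM in the bortezomib ones, but it was also at 269 TPM in the GH1-low vehicle replicate 7.

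Within each treatment alone, fewer genes were called. The bortezomib fish alone gave 33 genes called higher and the vehicle fish alone 23, and 19 were in both, 57.6% of the first and 82.6% of the second. The fish of each treatment were also split by GH1, so genes of the gland have to be shared. The overlap is therefore a description and no support. No gene differed in the size of its rise between the treatments in the limma interaction term; 580 genes had an unadjusted p under 0.05. With 2 GH1-high fish on each side, this does not show that the treatments acted alike.

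The contrast that the study was designed for was fitted with and without the GH1 class. With the class as covariate, 945 genes were called between bortezomib and vehicle, 4.88% of those tested (707 higher in bortezomib, 238 lower), and without it 888. The fits shared 843 genes. The estimates were equal in the 2 fits because the classes are balanced over the treatments, so only the error changed: 102 genes were gained and 45 lost. Leaving out the 4 GH1-high brains gave 321 called genes, of which 303 were among the 945. The count also moved when single fish were left out. Leaving out bortezomib replicate 2, 4, 5 or 6 or vehicle replicate 7 alone gave 617, 550, 615, 574 and 624, and 4 of these 5 are GH1-low. Without bortezomib replicate 3 or 8 or vehicle replicate 1 it rose to 1035, 1154 and 1276, and without any other single fish it was 645 to 777. No single fish brought it to 321, and whether the drop comes from the class or from fewer fish was not tested. The class and treatment calls shared 3 genes: ASCL1A, which was lower in bortezomib fish (log2 difference -0.67), and TBX20 (0.68) and the row Nfu_g_1_013260 (0.47), which were higher. All 3 were treatment calls only with the class as covariate (limma adjusted p = 0.00639, 0.0344 and 0.0461). Without it the limma adjusted p was 0.372, 0.591 and 0.318. TBX20 and Nfu_g_1_013260 had fewer than 4 GH1-low fish at 1 TPM or more, so they passed the filter only through the high class. For the class itself, the proteasome subunit PSMA4 was at 158 ± 55.3 TPM (SD, n = 4) against 160 ± 53.3 TPM (n = 12). It was at 183 to 224 TPM in the bortezomib fish and at 107 to 114 TPM in the vehicle fish. Each class held as many fish of either treatment, so these SDs include the gap between treatments. Between the classes, none of 41 proteasome rows was called by limma, with 3 at an unadjusted p under 0.05. Over all genes 0.295% were called higher and 9.25% had an unadjusted p under 0.05, so these counts are at the background.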

How the data were processed

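RNA was sequenced from 16 individual killifish brains, 8 per treatment. The deposited values are TPM per gene, made by the authors; each library sums to 1000000. Reads were demultiplexed with bcl2fastq 2.20.0.422 and STAR was used, per the submitters' processing notes; for the counter, the genome build and the gene models, the entry is: not given in the sources used here. TPM keeps no depth, so the precision that counting gives is unknown, and strand use is not stated.

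Brains were classed by GH1 (above 100 or under 5 TPM). Rows that reached 1 TPM in 4 fish or more (19351 of 26739) were tested with limma 3.58.1 in R 4.3.3 on log2(TPM + 1), with an intensity trend, GH1 class and treatment as terms, two-sided, Benjamini-Hochberg adjustment over all genes and a threshold of 0.05. Differences on this scale understate the change of low genes. The steps were tested on simulated data. Interaction and treatment contrasts used the same scale. Tables and figures were made with Python 3.11.15, numpy 2.4.6, pandas 2.3.3 and matplotlib 3.10.9. Nothing says that the fish differ in batch, and replicates are single fish.

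The members and the 24 gene lists were chosen with earlier results of these data known. Genes were named by rule: all detected hormones; up to 6 called members of each other pituitary list; up to 3 called members of every other list; outside the lists the 20 largest called rises and the 10 largest called falls that carry a symbol and average 5 TPM or more in the higher class; and a fixed set of pituitary, hypothalamic and brain genes. Some results under this rule are not reported here. Of the table's rows, 5137 have no symbol and 5987 share one; no identifier matched RefSeq, and the symbols of 11673 rows did. Alternatives were other scalings, filters, pseudocounts, covariates, weights, a replicate block, single treatments, GH1 as a continuous term and leaving out each fish.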

Additional observations from a re-analysis of the deposited data

Results flagged for a closer look

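Values that stand far from the rest of their class were sought in 156 sets of fish, and 13 stood apart by Dixon's criterion at the 95% level, where chance gives about 1 in 20. In the flagged sets of LHB and TBX19 all other fish were at 0. Any value above 0 would stand apart there, so that rate does not hold for them. Among GH1-low brains, PRL was far from the others in bortezomib replicate 4 (5.65 TPM) and in vehicle replicate 3 (12.8 TPM). Bortezomib replicate 4 was also apart for TSHB (2 OF 2) at 0.205 TPM and PRL2 at 0.195 TPM, and bortezomib replicate 8 was the only GH1-low brain with LHB, at 0.152 TPM. Bortezomib replicate 3 was apart for PITX1 (0.723 TPM) and EPCAM (1.65 TPM), bortezomib replicate 5 for TBX19 (0.185 TPM), and vehicle replicate 4 was lowest for VWA5B2 (0.244 TPM).

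Among GH1-high brains, vehicle replicate 5 was apart for GH1 itself, at 3582 TPM. Bortezomib replicate 7 was highest for GPHA2 (0.891 TPM), bortezomib replicate 6 for TBX19 (0.172 TPM), and vehicle replicate 6 was lowest for TRIM66 (9.06 TPM).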

How the results depend on the processing

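The count of 57 genes called higher became 27 with at least 1 TPM in 8 fish, where 31 of the 57 were tested. It became 21 with 1 TPM in 12 fish, where 26 of the 57 were tested, and 130, all 57 among them, with no filter. Sample weights gave 98, bortezomib fish alone 33 and vehicle fish alone 23; leaving out single fish gave 40 to 61. The count of genes called lower was 1 and became 0 under most alternatives, among them the 3 scalings, 11 with sample weights, 2 in vehicle fish alone and 0 to 6 without single fish. Same-numbered fish of the 2 treatments did not pair (correlations of deviations -0.337 to 0.253, 2 of 8 over 0.1); the replicate block gave 17 genes higher, 0 lower and 470 between treatments. The 945 genes called between treatments became 1557 with sample weights, 321 without the 4 GH1-high fish, and 550 to 1276 without single fish: 617, 550, 615 and 574 without bortezomib replicates 2, 4, 5 and 6 and 624 without vehicle replicate 7. The mean hormone sum of 4028 TPM was 5686 TPM with the unnamed row, added after seeing the data. Log2 differences of genes not called changed sign as follows, with the cause not tested: vehicle fish alone, POMCB -0.11, POMC (1 OF 2) 0.24 and PSMA4 0.030; bortezomib fish alone, GNRH3 0.058; sample weights, AVP 0.0093; replicate block, GNRH3 0.044, MBPB 0.058 and 0.12 and MBPA 0.18. Without single fish the ranges were -0.029 to 0.18 for POMCB, -0.25 to 0.11 for POMC (1 OF 2), -0.060 to 0.38 for OXT, -0.055 to 0.050 for PSMA4 and -0.29 to 0.041 for MBPA. Among single genes, 1251 values kept direction and side of the threshold, 92 lost the call, 9 moved (all for LHB, PRL or GH1) and 16 changed sign.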

Other observations

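ZNF292A and FKBP5 were compared after their values were seen. In the 12 GH1-low brains, log2(TPM + 1) of ZNF292A and of FKBP5 were correlated (Pearson r = 0.948, permutation p = 1e-05, the smallest that 100000 permutations can give; Spearman rho = 0.944, permutation p = 2e-05; 1 relation was tested, picked after it was seen, so its p is no independent support). Without the 2 fish farthest from the FKBP5 median r was 0.917, and within the 6 GH1-low bortezomib and the 6 GH1-low vehicle fish it was 0.960 and 0.953. The relation is not particular to ZNF292A: 105 of 19351 genes, ZNF292A among them, were at least as correlated with FKBP5 over these fish and 1410 had a correlation of over 0.8 in either direction, as did 2 of the 57 genes called higher. The GH1-high brains stood above the range of the 12 for both genes.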
